A study of Mus musculus with 3 samples.

Results

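The regions described here are 1972 peaks of the AH2 NBS1 list, 37.9% of its 5201, that stood alone among the deposited lists. They were chosen by the peak lists themselves: an AH2 NBS1 interval was taken if no base of it was covered by an interval of the R2K.Artm NBS1 list, of the AH2 input list or of the list of AH2 NBS1 peaks left after subtraction. Chromosomes X, Y and M, unplaced sequences, starts below 5 Mb, and stretches of 4 Mb around Igh on chromosome 12 and around Igk on chromosome 6 were set aside. The chosen regions are called lost peaks below, because a list titled as the subtracted version of the AH2 list did not hold them. All positions are in the mouse build mm9, counted from 1.

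AH2 and R2K.Artm are pre-B cell lines of the mouse that carry the v-Abl oncogene. NBS1 was immunoprecipitated from both with the same monoclonal rabbit antibody, and AH2 chromatin that saw no antibody served as input. The labels enter "N/A" as the genotype of both lines and name no treatment, clone or time, so what separates the lines genetically is not given in the sources used here. Each of the 3 groups was 1 library, the depth of each library is unknown, and no test between the lines was possible; intervals on shares reflect counting error alone and take each peak as independent, which neighbouring peaks are not.

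NBS1 belongs, with MRE11 and RAD50, to a protein complex that gathers at DNA double-strand breaks, tethers the ends and recruits the kinase ATM. In developing B cells such breaks arise when the RAG1/2 recombinase cuts beside antigen receptor gene segments, and the title of the study asks about cuts at other places. A ChIP-seq peak marks a stretch where more fragments were sequenced than the caller's background model allows; it is not itself a break, and a place without a peak is not shown to lack NBS1. Because the selection used overlap in these same libraries, the absence of a lost peak from the other lists is its definition and not a result.

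In the whole AH2 NBS1 list 43.4% of peaks overlapped none of the other 3 lists, and within the position limits 45.3% did so (1972 of 4351). Of the other 2379 peaks within the limits, 743 overlapped neither R2K.Artm NBS1 nor input but were in the subtracted list, each as an identical interval. These kept peaks are the closest comparison for the lost ones. A further 544 were shared with R2K.Artm NBS1 and not with input, 313 with input only and 779 with both. Lost peaks thus made up 72.6% (95% Wilson interval 70.9 to 74.3%) of the 2715 peaks found in the AH2 NBS1 list alone of the NBS1 and input lists. The subtracted list held 1489 intervals. Without the position limits, 836 AH2 NBS1 peaks that overlapped neither R2K.Artm NBS1 nor input were in it. How its other intervals relate to the AH2 NBS1 list was not examined, so absence from it is not shown to be removal by subtraction.

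The position limits set aside 283 further peaks that met the overlap rule. Most of these, 167, were on chromosome X, 50 were on unplaced sequences, 36 started below 5 Mb, 11 were on chromosome Y, 11 in the Igh area and 8 in the Igk area. On chromosome X, 167 of 197 AH2-only peaks were lost, 84.8% (79.1 to 89.1%), which was 12.1 percentage points above the autosomes (95% interval 6.23 to 16.8 points). The start limit was applied to the autosomes and not to chromosome X. Without it the autosomal share was 72.5%, against 72.6% with it. The last peaks below the start limit were chr2:4934500-4934620 (score 57.0) and chr10:4991135-4991235 (57.8), and the first ones above it were chr5:5062924-5063001 (53.4) and chr8:5237880-5237999 (82.1).

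The deposited score, the authors' own value for each peak with a minimum of 50 in the list, was low in most lost peaks. Their median was 58.3, with the middle 50% between 52.9 and 72.0 and a highest value of 178.7. Kept peaks had a median of 58.6, so the medians of lost and kept peaks were 0.305 apart, and each lay within the binomial interval of the other (57.8 to 58.96 for lost, 57.5 to 59.8 for kept). Peaks shared with R2K.Artm NBS1 and not with input had a median of 88.0, and those shared with both had 167. A score of at least 100 was reached by 129 lost peaks, 6.54% (5.53 to 7.72%), and by 60 kept peaks, 8.08% (6.33 to 10.3%). No lost peak reached 200, whereas 5 kept peaks and 48 of the 544 shared with R2K.Artm did.

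Loss from the subtracted list did not follow the score in one direction. Between scores of 50 and 52, 75.1% (70.9 to 78.8%) of AH2-only peaks were lost. The share was 67.1% (62.9 to 71.1%) from 60 to 70 and 80.3% (74.9 to 84.8%) from 70 to 80. It was 71.6% (64.2 to 78.0%) from 100 to 150. It was lowest among the 27 peaks of 150 or more, 48.1%, with a wide interval of 30.7 to 66.0%. Below a score of 150 the lowest share of any class was the 67.1% from 60 to 70.

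**Figure D1:**
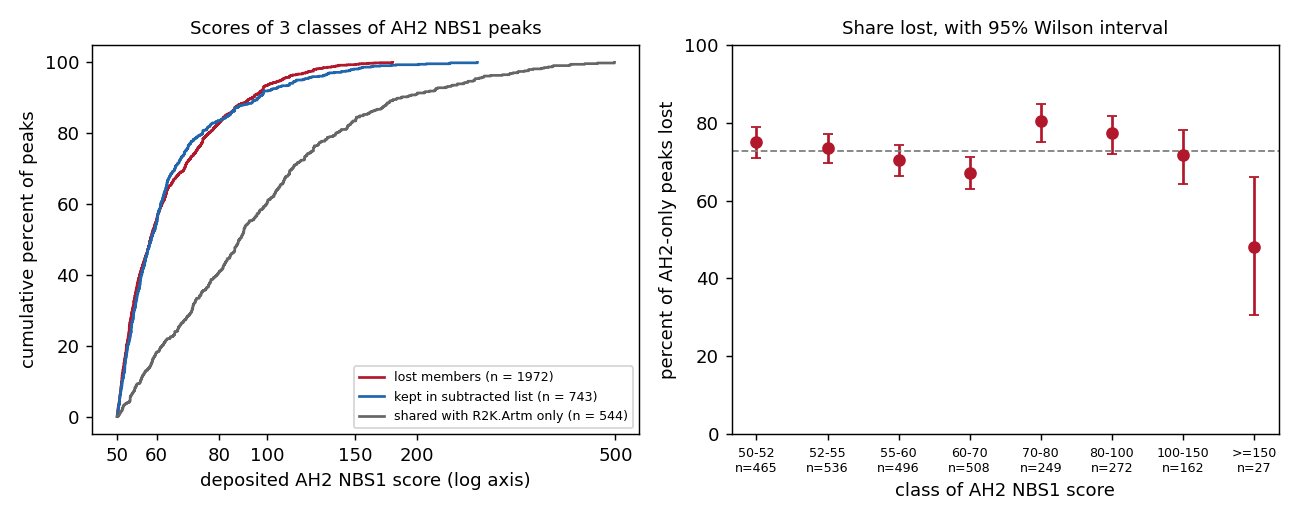
Left: cumulative percent of peaks (y) against the deposited AH2 NBS1 score (x, log axis) for the lost, kept and R2K.Artm-shared peaks; the lost and kept curves run together, with medians of 58.3 and 58.6, and the shared curve lies to the right with 88.0. Right: percent of AH2-only peaks lost (y) in 8 classes of score (x), points with 95% Wilson intervals and the 72.6% of all classes as a dashed line; the class of 150 or more is lowest at 48.1%.

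The 10 highest-scoring lost peaks lay on 8 chromosomes and had scores from 152.8 to 178.7. The peaks chr4:79040993-79041045 and chr13:25581022-25581079 shared the highest score. Behind them came chr8:70107742-70108002 (169.1), chr2:103119372-103119421 (164.6) and chr16:76807969-76808083 (163). The other 5 were chr14:30355803-30355861 (159.8), chr13:21802443-21802528 (159.1), chr12:47959250-47959336 (155.3), chr1:179213955-179214076 (153.6) and chr1:88402640-88402697 (152.8).

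Most of these strongest lost peaks were narrow. Of the 10, 7 were under 90 bases wide, against a median of 115 bases for all lost peaks. None of the 10 had another lost peak within 10 kb, where 5.43% of all lost peaks did, and none had an interval of the subtracted list within 100 kb, where 11.7% of all did, so 0 of 10 is close to the share over all lost peaks. An R2K.Artm NBS1 peak lay within 10 kb of 1, the peak at 21802443 on chromosome 13, 305 bases away and inside the histone gene cluster described further on, and an input peak lay within 10 kb of 1, the peak at 70107742 on chromosome 8, 2119 bases away.

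Lost peaks had the width of the kept ones. The median was 115 bases for lost peaks, with the middle 50% from 93 to 130 bases, and 116 bases for kept peaks, from 96 to 130 bases. Together the lost peaks covered 236 kb. Score and width ran against each other among them, with a Spearman correlation of -0.26 over the 1972 peaks, against -0.14 over the kept peaks and 0.24 over peaks shared with both other lists; these are descriptions across peaks of 1 library. The 85 lost peaks of at most 60 bases had a median score of 104, and none of them scored under 64.7, while the 540 lost peaks over 100 and up to 120 bases wide had a median of 54.3. Kept peaks showed the same pattern. Their 28 peaks of at most 60 bases had a median of 97.2 and a minimum of 84.5. The 194 kept peaks over 100 and up to 120 bases wide had a median of 55.5.

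Where high score and large width came together, loss was rarer. Of the 33 AH2-only peaks with a score of at least 100 and a width over 140 bases, 12 were lost, 36.4% (22.2 to 53.4%). Of those with such a score and a width of at most 100 bases, 86 were lost and 32 were kept, a lost share of 72.9% (64.2 to 80.1%). At such scores and widths over 100 and up to 140 bases, 31 of 38 were lost, 81.6% (66.6 to 90.8%). The share thus did not fall steadily with width. Among wide peaks with scores under 60 the share was 82.0% (75.9 to 86.7%, 159 of 194). These width classes were set after the values were seen.

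Many lost peaks repeated exactly the same score and width at separate places, and whether these places share sequence was not examined. Of lost peaks 40.7% shared both values with another AH2 NBS1 peak, as did 41.5% of kept peaks. A score and width held by at least 5 AH2 NBS1 peaks, a number set after the values were seen, belonged to 214 lost peaks, 10.9% (9.55 to 12.3%), on 19 chromosomes. The share was 8.75% (6.92 to 11.0%) for kept peaks and 2.39% (1.4 to 4.05%) for those shared with R2K.Artm NBS1 only. It was 2.56% (1.3 to 4.96%) for those shared with input only and 0.385% (0.131 to 1.13%) for those shared with both other lists. The median score of the 214 lost peaks was 52.6. Median scores were 88.0, 70.8 and 167 in the 3 shared classes, so these classes are not alike in score. The part of score in these shares was not tested. The repeats formed a line: at each of 16 consecutive widths, from 112 to 127 bases, the commonest score fell by 0.25 to 0.28 for each added base, from 54.5 at 112 bases to 50.6 at 127 bases. This line held 227 AH2 NBS1 peaks, of which 130 were lost peaks and 41 kept peaks. The largest number of lost peaks with 1 pair of values was 15, at a score of 52.9. Along this line a given width came with 1 commonest score.

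**Figure D2:**
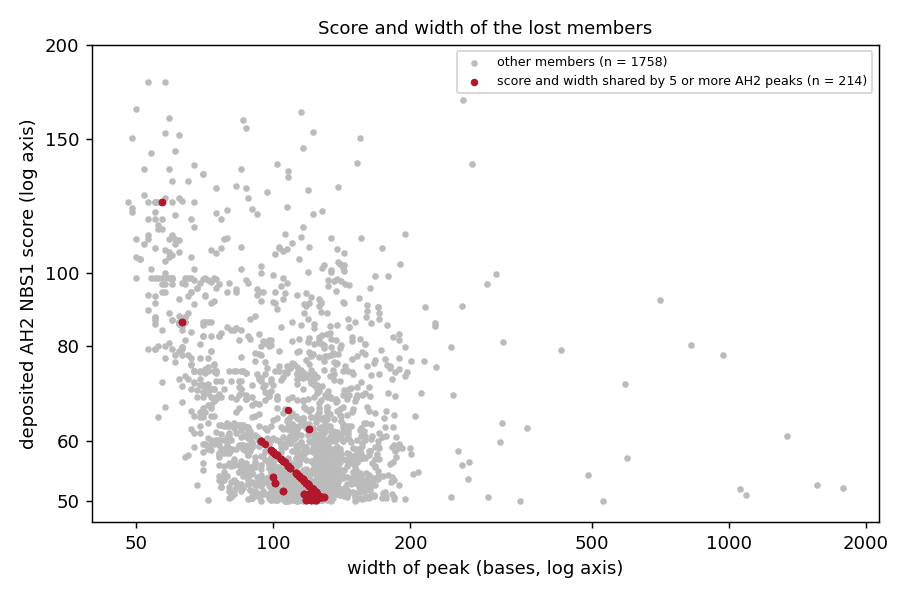
Score (y, log axis) against width in bases (x, log axis) of the 1972 lost peaks, each a point; the 214 with a score and width found in at least 5 AH2 NBS1 peaks are red. Most red points form a descending line between 112 bases (54.5) and 127 bases (50.6) and its continuation to narrower widths, and the narrowest peaks carry the high scores.

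Lost peaks were found on every autosome at similar density. Their density over all autosomes was 0.833 per Mb, and ranged from 0.695 per Mb on chromosome 12 (78 peaks, Poisson interval 0.550 to 0.868) to 0.940 per Mb on chromosome 8 (119 peaks, 0.779 to 1.13). Next to chromosome 8 in the order were chromosome 13 with 0.937, chromosome 10 with 0.928 and chromosome 14 with 0.924 per Mb, and next to chromosome 12 were chromosome 19 with 0.710 and chromosome 15 with 0.722 per Mb. In all 19 chromosomes the interval held the density over all autosomes, and in 0 of 171 pairs of chromosomes did the intervals stand apart. The highest density was 1.35 times the lowest, against 1.66 times for kept peaks and 3.11 times for peaks shared with R2K.Artm only. Those classes hold fewer peaks, so their ratios carry more counting error. Under the same position limits the ratio was 1.38 for the 10536 AH2 input peaks and 1.61 for the 2639 R2K.Artm NBS1 peaks. An even spread was thus not particular to lost peaks. By chromosome, the share of AH2-only peaks that was lost ranged from 64.5% (52.1 to 75.3%) on chromosome 19 to 79.4% (71.9 to 85.4%) on chromosome 13.

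**Figure D3:**
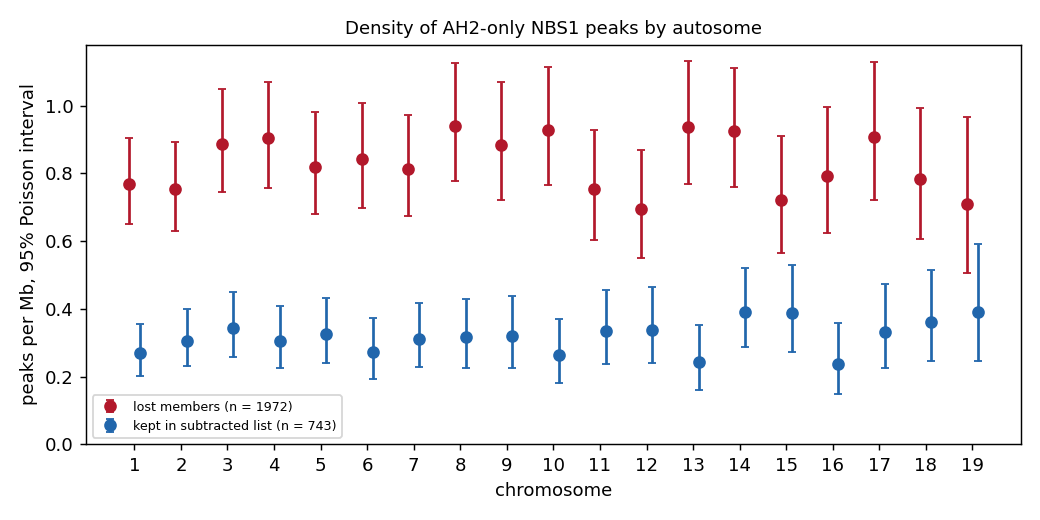
Lost (red) and kept (blue) AH2-only peaks per Mb (y, from 0) on each autosome (x), with 95% Poisson intervals. Lost peaks range from 0.695 per Mb on chromosome 12 to 0.940 per Mb on chromosome 8, and the intervals of all pairs of chromosomes overlap.

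Distances from lost peaks to the other lists varied widely. The median distance to the nearest R2K.Artm NBS1 peak was 309 kb, to the nearest input peak 88.4 kb and to the nearest interval of the subtracted list 700 kb; the lists differ in length, so these distances are not comparable with each other. An input peak lay within 100 kb of 1076 lost peaks, 54.6% (52.4 to 56.8%). The corresponding medians for kept peaks were 323 kb to R2K.Artm NBS1 and 79.3 kb to input.

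A larger share of lost than of kept peaks lay close to R2K.Artm NBS1 peaks, but these classes were not chosen independently of that list. Overlap with it was part of the rule, and the title and header of the subtracted list name R2K.A NBS1. The differences are therefore description only, and their cause was not tested. Within 1 kb lay 26 lost peaks, 1.32%, and 3 kept peaks, 0.404%, a difference of 0.915 percentage points (95% Newcombe interval 0.0332 to 1.58). Within 10 kb the shares were 5.38% (106 peaks) and 3.36% (25 peaks), 2.01 points apart (0.208 to 3.54). At 100 kb they were 22.3% and 21.5%, 0.778 points apart (-2.80 to 4.16). For input the interval of the difference included 0: within 10 kb of an input peak lay 10.6% of lost and 11.3% of kept peaks, a difference of -0.656 points (-3.45 to 1.87). Without the clusters on chromosomes 8 and 13 described next, the 10 kb difference for R2K.Artm NBS1 was 1.90 points (0.346 to 3.18). These intervals were not adjusted for the number of distances and lists compared.

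**Figure D4:**
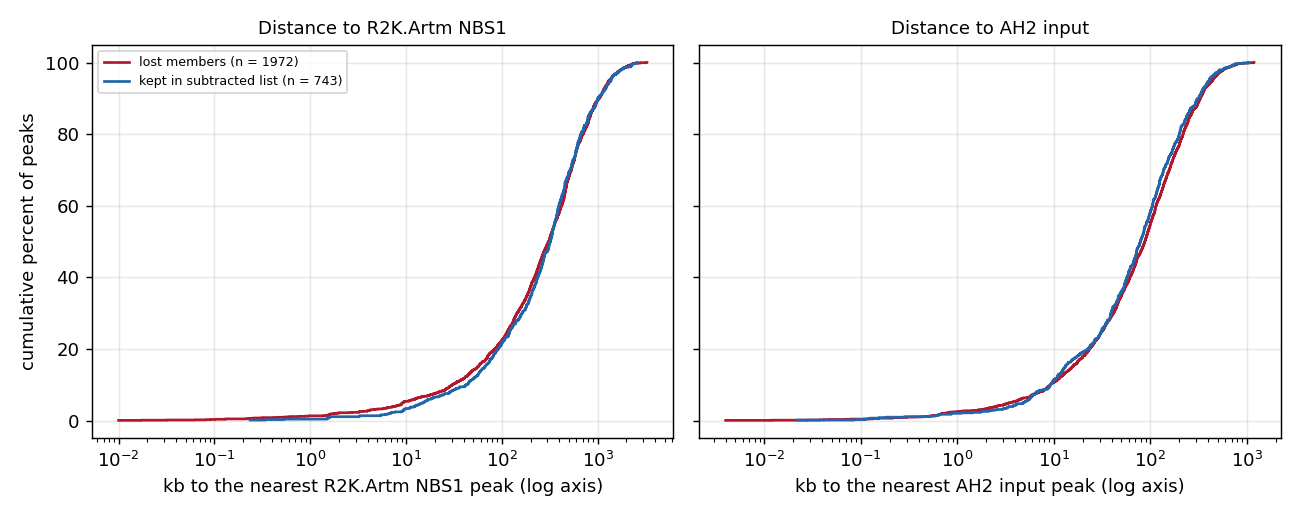
Cumulative percent of lost (red) and kept (blue) peaks (y) against the distance in kb to the nearest R2K.Artm NBS1 peak (left) or AH2 input peak (right), on log axes. The red curve runs above the blue one at short distances on the left (5.38% against 3.36% within 10 kb), and both curves lie close together on the right (10.6% against 11.3%).

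The lost peaks nearest to R2K.Artm NBS1 or to input, given here, lay 4 to 82 bases from a peak of that list. The 5 closest to an R2K.Artm NBS1 peak were chr16:60993040-60993161 (10 bases away, score 51.9), chr8:9946741-9946869 (17 bases, 74.5), chr6:47725332-47725760 (32 bases, 79.2), chr4:21875535-21875656 (63 bases, 78.3) and chr3:131559203-131559329 (82 bases, 60.2). On the other side of the rule, the smallest overlap of any AH2 NBS1 peak with an R2K.Artm NBS1 peak was 48 bases. That peak, on chromosome 2 at 49644588 to 49644637 (score 123.9), was only 50 bases wide, so most of it was shared. The peak on chromosome 8 at 9946741 was also the closest to input, 4 bases away. The others closest to input were chr7:85536153-85536254 (12 bases), chr17:5397396-5397513 (28 bases), chr8:126147494-126147677 (38 bases) and chr9:57886593-57886709 (42 bases). The smallest overlap with input was 1 base, on chromosome 11 at 17121429 to 17121516 (score 75.8).

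Toward the subtracted list the nearest lost peaks were chr4:55550243-55550419, 19 bases away, and chr2:67143715-67143828, 28 bases away. They were followed by chr12:31263729-31263826 (105 bases), chr12:70712547-70712806 (135 bases) and chr13:60543724-60543879 (369 bases). Only 9 lost peaks, 0.456%, had an interval of that list within 1 kb.

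A small number of lost peaks formed clusters. Of the 1972, 1865 had no other lost peak under 10 kb away, 34 runs held 2 peaks each, and 11 runs of at least 3 held 39 peaks. Another lost peak lay within 10 kb of 5.43% (4.51 to 6.52%) of them. The fullest megabase was 126 to 127 Mb of chromosome 8, with 14 lost peaks among 43 AH2 NBS1 peaks of all classes. It was followed by 23 to 24 Mb of chromosome 13 with 10 of 19. Next came 19 to 20 Mb of chromosome 8 with 9 of 16 and 21 to 22 Mb of chromosome 13 with 7 of 10. The fifth place was a tie at 6 between 173 to 174 Mb of chromosome 1 (of 8), 14 to 15 Mb of chromosome 5 (of 11) and 68 to 69 Mb of chromosome 11 (of 9). Against this, 808 megabases held 1 lost peak and 346 held 2. Over all AH2 NBS1 peaks within the position limits 45.3% were lost, so a high count is not by itself a high share.

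The 126 to 127 Mb stretch of chromosome 8 contains the tandem genes of 5S ribosomal RNA, the small ribosomal RNA that RNA polymerase III transcribes. That placement comes from general knowledge of mm9 and was not checked against an annotation of that build; the RefSeq gene table at hand, of build GRCm38, lists 42 of its 69 genes named n-R5s on chromosome 8. Of the 43 AH2 NBS1 peaks in the stretch 14 were lost, where 45.3% were lost over all within the position limits. The others were 6 kept peaks, 20 shared with R2K.Artm NBS1 only and 3 shared with both lists. The stretch also held 24 R2K.Artm NBS1 peaks and 12 input peaks. The median score of the lost peaks there was 82.9, against 58.3 over all lost peaks. All 14 had an R2K.Artm NBS1 peak within 10 kb, and in 9 of them its distance was between 1400 and 1700 bases. These limits were set after the distances were seen, as were those on the steps given below. Such nearness was not particular to lost peaks. Leaving out this stretch and the cluster on chromosome 13 took kept peaks within 10 kb from 25 of 743 to 16 of 733. Lost peaks that close went from 106 of 1972 to 79 of 1936.

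The fullest run lay in this array, at chr8:126062658-126091610, with 7 lost peaks in 29.0 kb. Their scores were, in order of position, 146.2, 101.6, 71.8, 95.4, 62.9, 91.3 and 100.8. The lost peaks were interspersed, singly or in pairs, with other AH2 NBS1 peaks: the same run held 4 shared with R2K.Artm NBS1 only, 1 shared with both lists and 1 kept. The 13 AH2 NBS1 peaks followed one another at near-regular steps, with 9 of the 12 steps between peak centres falling between 1500 and 1800 bases and a median step of 1709 bases. The remaining steps were 3410, 5091 and 5092 bases, close to whole multiples of that median. Lost and shared peaks thus stood in one series of near-regular steps. One shared peak of the run, at 126071139 to 126071237 (score 77.8), overlapped an input peak by 10 bases. A further run of 4 lost peaks stood in the same stretch at 126101666 to 126113614, with scores of 91.1, 74.7, 58.3 and 66.5. How reads that fit several copies of a repeat were handled is not given in the sources used here, and its part in these peaks was not tested.

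**Figure D5:**
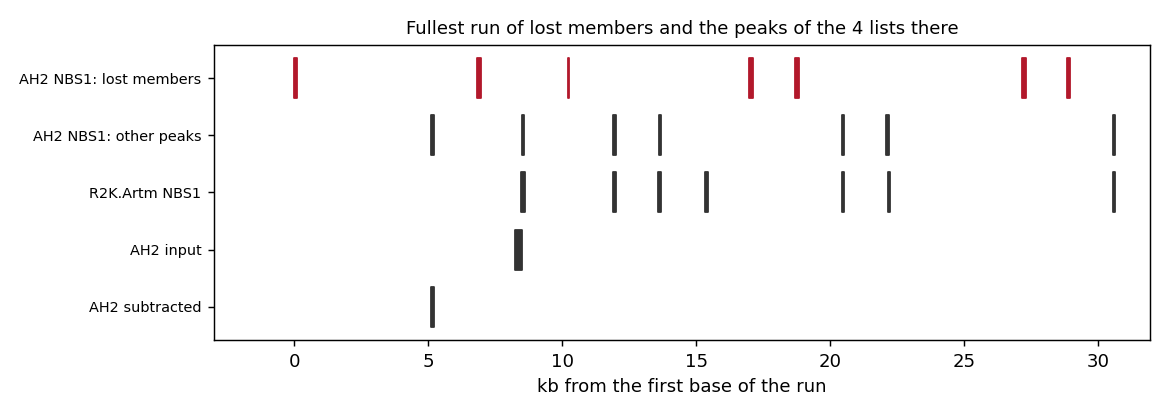
Peaks of the 4 lists (rows, with AH2 NBS1 split into lost members and other peaks) along the fullest run of lost peaks, in kb from its first base (x). The 7 lost peaks (red) are interspersed singly or in pairs with the other AH2 NBS1 peaks, the median step between AH2 NBS1 peaks being 1709 bases, and R2K.Artm NBS1 peaks stand beside them; the map extends 3 kb past each end.

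On chromosome 13, 21 to 24 Mb holds the largest cluster of histone genes, which supply the core and linker histones of replicating chromatin and are interspersed with transfer RNA genes, again from general knowledge of mm9. It contained 41 AH2 NBS1 peaks, of which 22 were lost, 4 kept and 15 shared with R2K.Artm NBS1 only. Over all AH2 NBS1 peaks within the position limits 45.3% were lost. The 22 were 1.12% of all lost peaks. The cluster also held 17 R2K.Artm NBS1 peaks and 16 input peaks. Scores of its lost peaks ran from 53.4 to 159.1, with a median of 76.1. The seventh-highest lost peak, at 21802443, was among them. With both clusters left out, 1936 lost peaks remained, and 4.29% of these had another lost peak within 10 kb.

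Other runs stood outside both clusters. On chromosome 1, at 173031989 to 173033292, 4 lost peaks followed each other within 1.30 kb, with scores of 81.4, 134.9, 111.6 and 52.2 and no peak of any other list between them. A run of 3 lay on the same chromosome at 172968130 to 172975193, with scores of 92.3, 62.3 and 139.1, and another run of 3 on chromosome 4 at 61656016 to 61658162, with scores of 58.2, 69.0 and 62.4. These runs contained no peak of R2K.Artm NBS1, of input or of the subtracted list. They were not fuller than the other runs of 3: 8 runs tied at that number, and ties were ordered by position. Outside both clusters the tied runs also included 2 on chromosome 11, at 68853881 to 68854862 and at 68876195 to 68877059, each under 1 kb long and free of the other lists. The remaining one, chr8:106615202-106622473, held 2 R2K.Artm NBS1 peaks and 3 input peaks and scores from 56.9 to 59.3.

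Most of the widest lost peaks lay in 1 stretch of chromosome 8. The 4 widest were on chromosome 8 at 19719041 to 19720820 (1780 bases, score 52.1), 19699185 to 19700746 (1562 bases, 52.5), 19789568 to 19790907 (1340 bases, 60.99) and 19690600 to 19691689 (1090 bases, 50.9). The fifth was on chromosome 6 at 47619912 to 47620971 (1060 bases, 51.8). Only 11 lost peaks were wider than 500 bases, and 6 of them lay between 19 and 20 Mb of chromosome 8. Scores of the 11 ran from 50.1 to 91.99, with the higher values at chr8:19778287-19778993 (707 bases, 91.99), chr5:15139594-15140419 (826 bases, 80.3) and chr6:47632438-47633408 (971 bases, 77.9), all above the upper quartile of 72.0 over all lost peaks. That megabase held 9 lost peaks in all with a median score of 55.2, 0 kept peaks, 4 peaks shared with input only, 3 shared with both lists and 23 input peaks, the most of the 7 megabases with at least 6 lost peaks. The 6 wide peaks of this megabase were 1629 to 8395 bases from the nearest input peak; the part of input signal in them was not tested. No kept peak was wider than 350 bases. Such width was not particular to lost peaks, of which 11 of 1972 were over 500 bases. So were 22 of 779 peaks shared with both lists, 3 of 313 shared with input only and 2 of 544 shared with R2K.Artm only.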

How the data were processed

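NBS1 ChIP-seq of AH2 and R2K.Artm and AH2 input was analysed from 4 peak lists (3192 R2K.Artm NBS1, 11903 input, 5201 AH2 NBS1 and 1489 subtracted intervals). The submitters' processing notes name mm9, Bowtie and MACS 1.4.2; which control each call used, and the Bowtie version, is not given in the sources used here. The deposited value is a score per peak from the authors' caller, whose formula the headers do not state; it was compared within the AH2 NBS1 list only. The subtracted file's title names R2K.A NBS1 and input, its header R2K.A NBS1 alone, and neither says how subtraction was done.

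Intervals were joined in Python 3.11.15 (numpy 2.4.6, pandas 2.3.3), with joins tested on simulated data. Shares carry 95% Wilson intervals, medians binomial order-statistic intervals and densities Poisson intervals (scipy 1.17.1); differences of shares carry Newcombe intervals (statsmodels 0.14.6). All cover counting error only. Density used the span between the first and last base of any list on a chromosome, less the excluded parts. Runs are lost peaks each under 10 kb from the next. Named regions are the 10 highest-scoring, the 5 widest and the 5 nearest to each other list, with the 5 fullest runs and megabases (ties by position). Members and settings were chosen with earlier results of these data known. Sequence and gene annotation of mm9 were not used here, so repeats, motifs and genes were not examined.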

Additional observations from a re-analysis of the deposited data

How the results depend on the processing

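No paired analysis was possible because there is only 1 library per group, and leaving one out would remove its group. Of the 30 values computed under other settings for 9 results, 21 stayed within the 95% interval of the reported value (for the number of lost peaks, within 1.5 times). Raising the score limit removes peaks by construction: 880 lost peaks (0.372 per Mb) had a score of at least 60, and 129 of at least 100. At 100 the share of AH2-only peaks that was lost was 68.3%. At 60, 6.82% of lost peaks were within 10 kb of an R2K.Artm NBS1 peak; the cause was not tested. Without 21 to 24 Mb of chromosome 13 and 126 to 127 Mb of chromosome 8, an alternative chosen after seeing the data, 4.08% lay within 10 kb of R2K.Artm NBS1, 1.55% that close to a subtracted interval and 4.29% within 10 kb of another lost peak, as 36 clustered peaks were left out. Another lost peak was within 100 kb of 20.1%. The number of lost peaks was 1899 with intervals within 1 kb counted as shared and 2024 with coverage of at least 50% required. Alternatives for sequence features were not run. Unknown depth limits every absence: a region without a peak may have fallen under the caller's limit.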
